A study of Mus musculus with 60 samples.

Results

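Sequence that lies in a lamin B1 domain of R6/1 hippocampus and in no lamin B1 domain of wild-type (WT) hippocampus covers 668 of the 66812 autosomal bins of 37 kb on build NCBIM37, or 24.72 Mb. These bins were chosen by position alone: each lies inside a domain of the R6/1 list and outside every domain of the WT list. Of the 668 bins, 374 (13.84 Mb, 56%) form 11 whole new domains that touch no WT domain, and 294 (10.88 Mb) form 63 stretches that extend WT domains. R6/1 mice model Huntington's disease through a transgene: the first exon of human huntingtin with its CAG tract expanded. All groups used here are hippocampal tissue of 30-week-old mice, WT or R6/1, from a strain mix of equal parts CBA and C57BL/6, with no other treatment named. Lamin B1 chromatin immunoprecipitation was made with input controls on 3 biological replicates a genotype, each a pool of 5 mice, but 1 domain list a genotype is what was analysed here. Domain membership therefore has no replicate check, and no test was made on it. RNA sequencing comprised 9 independent biological replicates a genotype, which gives the replicated measurements below.

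The nuclear lamina is a protein mesh of A-type and B-type lamins that lines the inner nuclear membrane. Chromatin in contact with it forms lamina-associated domains, which are long, poor in active genes and late to replicate. Large families of tissue-restricted genes, among them the olfactory receptors of nasal neurons and the pheromone-sensing vomeronasal receptors, are known residents of such domains in cells that do not use them.

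The gained stretches differ in how often their sequence occurs in the genome, which bears on where 50-base ChIP reads can be placed. The 50 bases at the exact middle of each of the 11 new domains and of the 3 longest extensions were read from the NCBIM37 genome and searched on both strands. In 10 of the 14 stretches the middle word occurred once and in 4 it occurred more often. The 4 repeated words and 1 single-copy word are shown, all in lower case as no base is singled out.
Ribonuclease domain, chr14:44252001-44252050, plus strand: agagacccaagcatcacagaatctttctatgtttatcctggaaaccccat
Organic ion transporter domain, chr19:8158501-8158550, plus strand: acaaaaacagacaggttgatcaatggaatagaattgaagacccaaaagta
Cytochrome P450 domain, chr7:27380001-27380050, plus strand: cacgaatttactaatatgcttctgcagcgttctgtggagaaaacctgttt
Secretoglobin extension, chr7:32911501-32911550, plus strand: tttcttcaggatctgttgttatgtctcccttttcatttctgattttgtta
Fhit domain, chr14:10841001-10841050, plus strand: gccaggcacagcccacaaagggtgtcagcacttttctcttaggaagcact
The ribonuclease word has 6 copies, all on chromosome 14, of which 1 lies in the domain itself. The transporter word has 3 copies, all inside its own domain on chromosome 19. The cytochrome P450 word has 85 copies and the secretoglobin word 8822, spread over the genome. The Fhit word has 1 copy.

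Gene starts in the gained sequence also differ in their sequence. The 250 bases before the annotated start of 7 genes follow, chosen to set genes transcribed in hippocampus beside silent or nearly silent family members. Capitals mark each CG dinucleotide, the site of DNA methylation and the mark of CpG-rich promoters. The first annotated base need not be where transcription starts.
Rpl37, chr15:5066363-5066612, plus strand: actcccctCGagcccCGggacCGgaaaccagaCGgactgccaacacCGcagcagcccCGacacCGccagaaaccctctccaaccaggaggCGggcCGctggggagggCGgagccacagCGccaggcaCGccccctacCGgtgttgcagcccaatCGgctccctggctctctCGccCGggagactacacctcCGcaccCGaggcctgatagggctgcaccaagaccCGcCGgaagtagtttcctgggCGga
Zfp180, chr7:24866693-24866942, plus strand: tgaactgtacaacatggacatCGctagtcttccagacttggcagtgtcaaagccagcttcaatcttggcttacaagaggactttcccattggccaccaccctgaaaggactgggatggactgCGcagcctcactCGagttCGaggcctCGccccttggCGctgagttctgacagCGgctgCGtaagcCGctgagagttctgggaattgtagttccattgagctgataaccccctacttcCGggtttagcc
Ttc33, chr15:5135275-5135524, plus strand: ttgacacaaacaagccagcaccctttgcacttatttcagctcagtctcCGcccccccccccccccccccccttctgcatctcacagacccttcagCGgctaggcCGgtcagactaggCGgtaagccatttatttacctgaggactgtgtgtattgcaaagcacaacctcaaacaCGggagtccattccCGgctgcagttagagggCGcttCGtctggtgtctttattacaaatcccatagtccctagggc
Vmn1r58, chr7:5364748-5364997, minus strand: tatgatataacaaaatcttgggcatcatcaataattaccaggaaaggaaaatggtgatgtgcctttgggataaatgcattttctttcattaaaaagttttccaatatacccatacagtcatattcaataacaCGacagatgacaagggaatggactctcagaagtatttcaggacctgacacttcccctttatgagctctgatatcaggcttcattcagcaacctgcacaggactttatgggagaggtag
Cyp2f2, chr7:27904678-27904927, plus strand: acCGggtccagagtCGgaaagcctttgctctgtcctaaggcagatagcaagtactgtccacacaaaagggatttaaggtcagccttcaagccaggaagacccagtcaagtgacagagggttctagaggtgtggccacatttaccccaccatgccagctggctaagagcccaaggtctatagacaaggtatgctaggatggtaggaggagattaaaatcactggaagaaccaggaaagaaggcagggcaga
Slc22a19, chr19:7785801-7786050, minus strand: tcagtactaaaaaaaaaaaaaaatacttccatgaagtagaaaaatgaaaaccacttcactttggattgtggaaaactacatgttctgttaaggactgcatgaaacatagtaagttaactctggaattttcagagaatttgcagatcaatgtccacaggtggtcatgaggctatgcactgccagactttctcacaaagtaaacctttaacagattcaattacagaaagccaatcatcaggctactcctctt
Olfr1, chr11:73212998-73213247, minus strand: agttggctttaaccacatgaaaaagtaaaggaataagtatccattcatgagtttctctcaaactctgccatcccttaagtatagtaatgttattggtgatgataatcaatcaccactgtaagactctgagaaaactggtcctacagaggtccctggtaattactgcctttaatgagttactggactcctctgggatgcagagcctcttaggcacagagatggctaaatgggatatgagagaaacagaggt
The window holds 21 CG before Rpl37, 10 before Zfp180 and 8 before Ttc33. It holds 2 before Cyp2f2, 1 before Vmn1r58 and 0 before Slc22a19 and Olfr1. Over all 222 protein-coding starts in gained bins the median was 2 CG, and 12.2% of the windows held 10 or more. In whole new domains the median was 1 and 6.0% held 10 or more, and in extensions the median was 3 and 24.7% did. Over all 21414 autosomal protein-coding starts the median was 9 and 47.6% held 10 or more. Starts in domains of both genotypes were close to the gained ones in the median, at 2, with 21.4% at 10 or more. For the 42 protein-coding genes whose mean level reached 0.5 RPKM (reads per kilobase, scaled for depth) the median was 8 CG. For the 140 below that level it was 1. Among the genes shown, the mean was 119 RPKM for Rpl37, 25.0 for Ttc33, 13.3 for Zfp180 and 9.72 for Vmn1r58. It was 0.0562 RPKM for Cyp2f2, 0.00693 for Slc22a19 and 0 for Olfr1. Vmn1r58 thus had reads despite the 1 CG in its window.

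The 11 new domains lie on 7 chromosomes, are 0.666 to 2.96 Mb long (median 1.036 Mb) and stand 1554 to 23791 kb from the nearest WT domain. Chromosome 7 holds 3 of them, and has 144 gained bins, 21.56% of the gained bins against 6.17% of all bins. Gained bins were densest on chromosome 19, with 64 of 1657 bins, and chromosome 16 had 0. The score that the authors' domain caller gave each new domain was low, from 2.90 to 4.12, all 11 below the lower quartile of the R6/1 list (4.16). The whole list of 166 domains runs from 2.85 to 54.9 with a median of 6.48, and 42 of them lie below that quartile. The new domains were also short: median lengths were 3.515 Mb for extended domains and 3.848 Mb for those with no gained bin. Among the latter, autosomal domains of 1.11 to 1.221 Mb scored from 2.87 to 4.51. Low scores were therefore found among other short domains too. Scores have no interval, so how far these domains stand from the caller's limit cannot be given as an error.

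**Figure D1:**
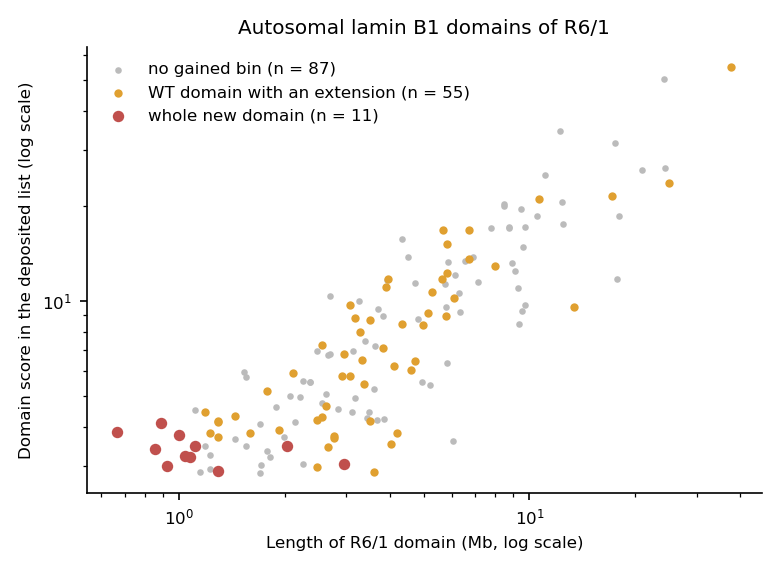
Length against the authors' domain score, both on log scales, for the autosomal R6/1 domains: 11 whole new domains, 55 domains that extend a WT domain, and 87 with no gained bin. The new domains, 0.666 to 2.96 Mb long with scores of 2.90 to 4.12, sit in the lower left corner.

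Several kinds of neighbourhood make up the new domains, in which 232 annotated genes start. The first is receptor clusters. The domain at chr11:73149001-74185000 holds 54 annotated starts, 44 of them olfactory receptors, and the domain at chr5:109150001-110223000 holds the vomeronasal type 2 receptors Vmn2r8 to Vmn2r17 beside Crlf2, a cytokine receptor subunit. The domains at chr7:5069001-6068000 and chr7:24050001-24901000 hold type 1 vomeronasal receptors, with Nlrp genes of the oocyte-expressed family and, in the second, the zinc finger genes Zfp180 and Zfp112. The second kind is clusters of enzymes, transporters and secreted proteins. The domain at chr7:26825001-27935000 holds Cyp2a, Cyp2b, Cyp2f and Cyp2g cytochromes, of a family of xenobiotic-metabolising enzymes. It also holds the vomeronasal receptors Vmn1r184 and Vmn1r185 and the Nlrp genes Nlrp4a, Nlrp9a and Nlrp9c. The domain at chr19:7696001-8621000 holds 6 organic ion transporters of the Slc22a family, and chr14:43919001-44585000 holds eosinophil-type ribonucleases and angiogenins among predicted gene models. The third kind is chr12:20054001-20942000, where 5 genes start and 1 symbol, 1700030C10Rik, has expression values. The fourth is chromosome 14 and 15 sequence with few genes or mixed genes. The domain at chr14:9361001-12321000, the longest at 80 bins, holds 13 starts including Fhit, a diadenosine polyphosphate hydrolase whose gene spans a fragile site. The domain at chr15:4107001-6142000 holds Rpl37, Prkaa1, Ttc33, Ptger4, Card6 and the complement genes C6 and C7, and chr15:9102001-10397000 holds Prlr, Capsl, Spef2, Il7r and 2 UDP-glucuronosyltransferases.

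Extensions were mostly short. Of the 63 stretches, 28 were 1 bin and 14 were 2 bins long, while 7 of at least 10 bins held 169 of the 294 extension bins. The 5 longest were chr7:31968001-33855000 (51 bins, secretoglobin genes), chr12:89170001-90428000 (34 bins, the start of Nrxn3 and all of Adck1), chr19:17686001-18833000 (31 bins, the start of Pcsk5 with Ostf1, Carnmt1 and D030056L22Rik), chr17:51319001-51985000 (18 bins, Satb1) and chr4:63233001-63714000 (13 bins, Tnc). The 63 stretches extend 54 WT domains, 9 at both ends and 45 at 1 end. In 34 of those 45 domains the other end had moved inward in R6/1. The 54 WT domains gained 294 bins and lost 1353 bins in all, and 28 of them were longer and 26 shorter by net length in R6/1. Within extensions on chromosome 7, a single bin at chr7:67007001-67044000 holds 14 starts of the small nucleolar RNA family SNORD116, for which no expression value was matched.

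Pooled over bins, repeated sequence made up more of the gained sequence than of the other classes. This is given without a test since neighbouring bins share sequence. A word of 50 bases with a single copy in the genome made up 74.5% of the words in new domains and 77.0% in extensions, against 86.3% in shared domain sequence, 89.4% in sequence of WT domains only and 90.8% outside domains (every 20th autosomal bin for the last 3 classes). The difference from shared sequence lay mostly in words with 2 to 9 copies, the range of recent segmental duplications and tandem gene clusters. These were 13.4% in new domains and 15.0% in extensions against 3.8%, 3.3% and 4.0% in the same 3 classes. Words with 10 or more copies added to the difference from WT-only and domain-free sequence. They were 12.1% in new domains and 8.0% in extensions against 10.0%, 7.4% and 5.2%. Bins in which fewer than 50% of words had 1 copy were 104 of 668 gained bins (15.6%), against 1.3% in shared sequence, 1.9% in WT-only sequence and 3.7% outside domains. In the median bin, 80.8% of words had 1 copy in new domains and 91.4% in extensions. The medians were 90.2% in shared, 93.9% in WT-only and 96.4% in domain-free sequence. The secretoglobin extension, with 57.2% of its words at 2 to 9 copies, makes up 51 of the 294 extension bins. The new domains and the 3 longest extensions varied widely. Of their words, 30.1% had 1 copy in the secretoglobin extension, 34.7% in the ribonuclease domain and 35.1% in the chromosome 12 domain. The Fhit domain reached 90.0% and the Pcsk5 extension 91.3%. Shorter extensions ran from 8.2%, in the SNORD116 bin on chromosome 7, to 98.3%. How the authors placed reads with several matches is not given in the sources used here, and its part in the domain calls was not tested. Base composition was intermediate: 40.5% G and C in new domains and 41.6% in extensions, against 38.3% in shared and 44.1% in domain-free sequence.

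**Figure D2:**
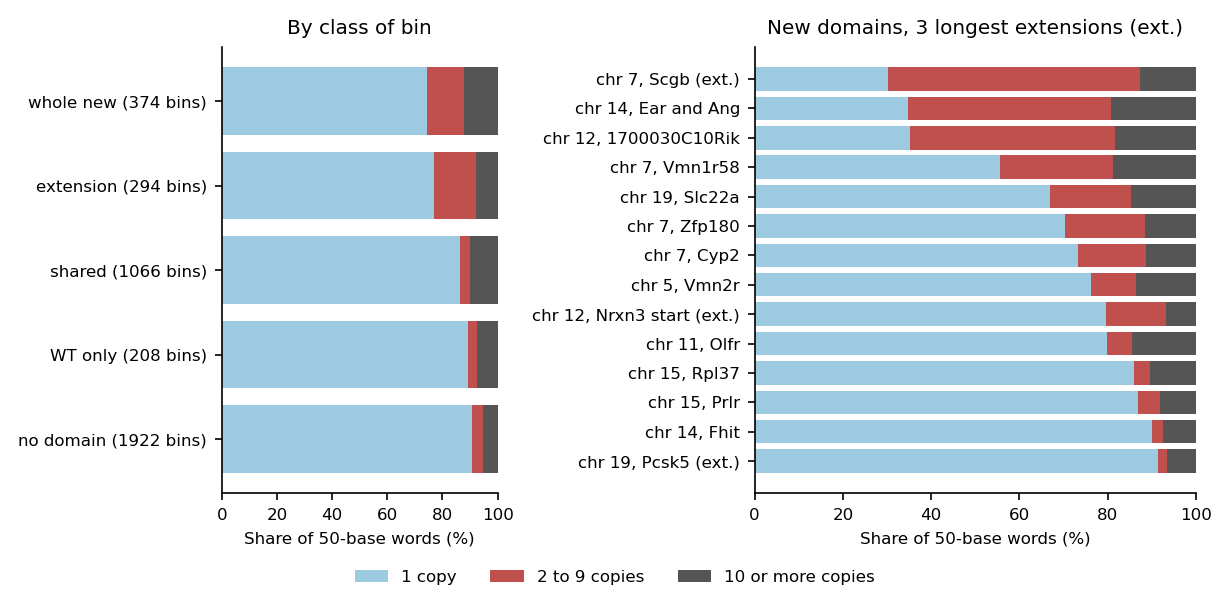
Share of 50-base words with 1, 2 to 9 and 10 or more copies in the NCBIM37 genome, by class of bin (left) and in the 11 new domains and the 3 longest extensions (right). New domains have 74.5% single-copy words and shared sequence 86.3%, and the stretches shown range from 30.1% to 91.3%.

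Gene families accounted for much of what the gained sequence holds. In gained bins 373 annotated genes start, 1.08% of the 34647 autosomal starts, and 94 of the 373 (25.2%) are olfactory or vomeronasal receptors. Of these, 93 lie in new domains, where they make up 40.1% of the 232 starts, and 1 lies in an extension. Pseudogenes made up 25.0% of the starts in new domains and 12.1% in extensions, against 17.5% in shared sequence and 10.1% outside domains. Of 438 autosomal vomeronasal receptor starts, 50 (11.4%) fell in gained sequence, 241 (55%) in shared domains, 2 in WT-only sequence and 145 (33.1%) in no domain. Of 1243 olfactory receptor starts, 44 (3.5%) were gained, all in the chromosome 11 domain, while 956 (76.9%) lay in shared domains. These 956 and the 241 vomeronasal starts stand among 6010 starts in shared domains, so receptor clusters are not particular to gained sequence. The 11 gained cytochrome P450 starts were 10.7% of 103, and the 10 gained zinc finger starts were 2.7% of 367. For families picked after the gene content had been seen, the shares were 14 of 27 SNORD116 starts (51.9%), 11 of 23 eosinophil-type ribonuclease and angiogenin starts (47.8%), 7 of 19 Nlrp starts (36.8%) and 6 of 26 Slc22a starts (23.1%). The 14 SNORD116 starts lie in 1 bin, where 8.2% of words had 1 copy in the genome. The 11 ribonuclease and angiogenin starts lie in 1 domain, where 34.7% did. Members of a cluster share their position, so these starts are not independent observations.

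**Figure D3:**
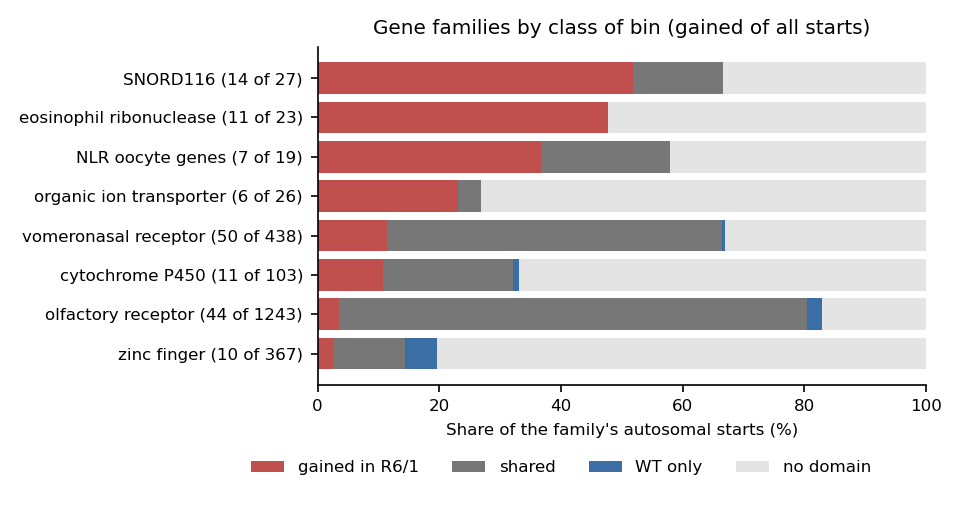
Share of each family's autosomal gene starts in gained, shared, WT-only and domain-free bins, with the gained and total numbers of starts after each name. Olfactory receptors lie mostly in shared domains (76.9%), while SNORD116 (51.9%) and the ribonucleases (47.8%) have the highest gained shares shown. The gained SNORD116 starts lie in 1 bin with 8.2% single-copy words.

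Expression of genes that start in gained sequence was measured in 18 RNA libraries with 12299434 to 16736544 reads on genes each. Of the 373 starts, 193 matched a symbol in the expression table, 133 in new domains and 60 in extensions. Of the 193, 92 (47.7%) had 0 reads in all 18 libraries, and a count of 0 allows up to 3 reads in a library. In new domains 16 of 133 genes (12%) reached a mean of 0.5 RPKM and 59.4% had no read in any library. In extensions 27 of 60 (45.0%) reached it and 21.7% had no read. The corresponding shares at 0.5 RPKM were 33% of 3020 genes in shared domains, 68.0% of 793 in WT-only sequence, 69.3% of 17189 outside domains and 72.3% of 256 in domain-free bins within 185 kb of the gained sequence. Genes in new domains thus had the lowest share of the classes compared, by values that include WT libraries as well as R6/1.

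Receptor genes had almost no reads, with 2 exceptions. The 31 olfactory receptors with values had 0 reads in every library. Of the 42 vomeronasal receptors with values, 28 had 0 reads throughout and 2 passed 0.5 RPKM. Vmn1r58 ranged from 7.49 over a median of 9.91 to 15.0 RPKM in WT and from 7.50 over 8.93 to 12.7 RPKM in R6/1. Vmn1r65 ranged from 0.695 over 0.826 to 1.08 RPKM in WT and from 0.489 over 0.726 to 1.30 RPKM in R6/1, and was singled out after its values were seen. Both genotypes overlapped for each gene, with log2 differences of -0.11 ± 0.11 (SE, adjusted p = 0.43, limma) for Vmn1r58 and -0.05 (adjusted p = 0.73, limma) for Vmn1r65. All other gained receptor genes together gave 0 to 4 reads in a WT library and 0 to 7 in an R6/1 library. Of the exon words of Vmn1r58, 57.1% have 1 copy in the genome, so its reads may be shared with paralogs, whereas the figure for Vmn1r65 is 91.3%. The olfactory neuron markers Omp (0.0949 to 0.465 RPKM) and Cnga2 (0 to 0.145 RPKM) were close to 0 in all libraries. With Gnal and Adcy3, which other neurons also express, the 4 markers of these cells summed to 33.5 to 42.6 RPKM in WT and 35.0 to 43.4 RPKM in R6/1, and of the 2 tested 1 was called higher (limma).

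Other families were at similar levels. The highest mean was 0.0562 RPKM among the gained cytochromes (Cyp2f2), 0.0684 RPKM among the Nlrp genes (Nlrp2), 0.00858 RPKM among the transporters (Slc22a29) and 0.00152 RPKM among the pregnancy-specific glycoproteins (Psg17). All 4 ribonuclease-family genes with values, Ang5 among them, were listed at 0, as were all 6 symbols of their domain, 1700001F09Rik included. In the chromosome 12 domain 1700030C10Rik had a mean of 0.454 RPKM. Zinc finger genes were the exception: 7 of 9 with values reached 0.5 RPKM, led by Zfp180 with 11.6 to 14.4 RPKM in WT and 11.4 to 15.8 RPKM in R6/1.

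Changes between genotypes in the gained sequence went both ways and were about as frequent as elsewhere. Of the 43 genes tested, 11 were higher and 11 lower in R6/1 (limma, adjusted p under 0.05), or 51.2% in all. Over all 14446 genes tested, 48.3% were called, 24.8% higher and 23.5% lower, so the share among the 43 is near the background. The median log2 difference was -0.03 among the 43 and 0.00 over all genes. In new domains 4 of 16 tested genes were higher and 1 lower, with a median of -0.04. In extensions 7 of 27 were higher and 10 lower, also with a median of 0.00. Shared domains gave 236 higher and 252 lower of 996. In 6 of the 43 genes (14%) the 9 WT and the 9 R6/1 libraries did not overlap, against 11.9% of all genes tested. Called genes differed by 0.19 to 0.80, and 2 of the 22 by at least 0.5, in log2(RPKM + 0.5) units, in which low genes show smaller changes than they do in RPKM. In the authors' deposited table Tnc differed by -1.09, Pcsk5 by -0.55 and Card6 by -0.51 on the log2 scale. Without the 7 libraries richest in the choroid plexus transcript Ttr, a choice made after the data were seen, 17 of the 22 kept their call. All 22 kept their direction. With fewer libraries, that fit also called fewer genes over the whole table, 2918 higher and 2895 lower. Scaling each library to the sum of its reads on genes called 5110 genes higher and 2526 lower over the whole table, against 3586 and 3394 with the deposited scaling, and called 12 and 8 of the 43.

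**Figure D4:**
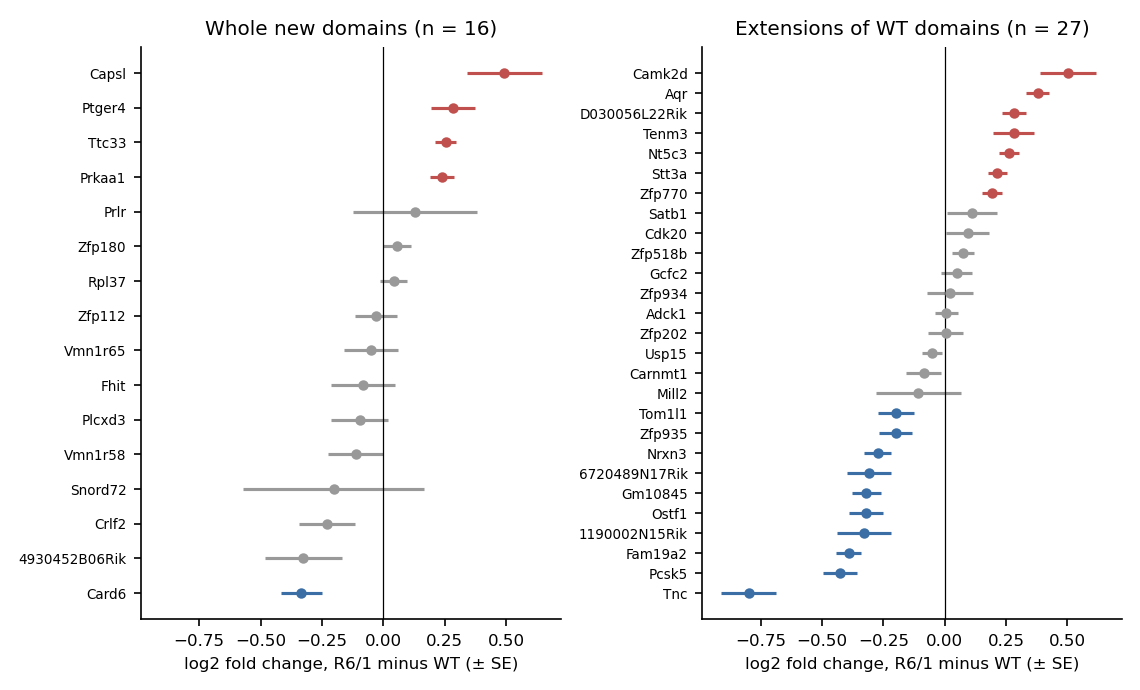
Log2 fold change, R6/1 minus WT, with its standard error for the 43 tested genes that start in gained sequence, 16 in new domains (left) and 27 in extensions (right). Red marks the 11 genes higher in R6/1, blue the 11 lower and grey the 21 not called. Values run from -0.80 for Tnc to 0.50 for Camk2d.

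Of the 7 extension genes higher in R6/1, Aqr and Nt5c3 were separated from WT in every library. Aqr, a helicase of the spliceosome, ranged from 6.98 over a median of 8.14 to 9.38 RPKM in WT and from 10.2 over 10.4 to 11.7 RPKM in R6/1. The genotypes did not overlap, and the log2 difference was 0.38 ± 0.04 (SE, adjusted p = 1.02e-06, limma). Nt5c3, a nucleotidase that dephosphorylates pyrimidine monophosphates, ranged from 16.6 over 18.3 to 20.4 RPKM in WT and from 20.52 over 21.7 to 24.2 RPKM in R6/1. Every R6/1 library was above every WT library (log2 difference 0.26 ± 0.04 SE, adjusted p = 2.6e-05, limma). Of the gene bodies, 18.4% of Aqr and 11.9% of Nt5c3 lie in gained sequence and the rest in no domain, so the gain covers their starts only. Stt3a, the catalytic subunit of the oligosaccharyltransferase that glycosylates nascent proteins, rose from 14.6 ± 0.846 to 17.0 ± 0.857 RPKM (SD, n = 9 each). The zinc finger gene Zfp770 rose from 8.21 ± 0.469 to 9.47 ± 0.506 RPKM and the uncharacterised D030056L22Rik from 13.4 ± 1.22 to 16.4 ± 1.05 RPKM (SD, n = 9 each). In these 3 genes all 9 R6/1 libraries exceeded the WT median.

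Camk2d and Tenm3 kept their calls when any single library was left out, but lost them in the smaller fit without 7 libraries. Camk2d, the delta subunit of the calcium- and calmodulin-dependent kinase II, ranged from 6.32 over 8.36 to 13.0 RPKM in WT and from 10.4 over 12.6 to 15.0 RPKM in R6/1 (log2 difference 0.50 ± 0.11 SE, adjusted p = 0.00106, limma). The genotypes overlapped, although all 9 R6/1 libraries exceeded the WT median. Without the 7 libraries rich in Ttr the difference was 0.36 and was no longer called (adjusted p = 0.0734, limma). Tenm3, a teneurin that guides synaptic partner choice, had a mean of 14.4 ± 2.68 RPKM (SD, n = 9) in WT and of 17.4 ± 1.497 RPKM (SD, n = 9) in R6/1. Its log2 difference was 0.28 (adjusted p = 0.00948) with all libraries and 0.20 (adjusted p = 0.144, limma) in the 11 left without those 7.

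In the new domains 3 of the 4 higher genes are neighbours on chromosome 15. Ttc33, a tetratricopeptide repeat protein, ranged from 19.97 over 22.6 to 25.6 RPKM in WT and from 25.8 over 27.4 to 29.01 RPKM in R6/1, with no overlap (log2 difference 0.25 ± 0.04 SE, adjusted p = 5.62e-05, limma). Prkaa1, the catalytic alpha 1 subunit of the energy sensor AMPK, ranged from 9.91 over 10.6 to 11.6 RPKM in WT and from 11.1 over 12.8 to 14.1 RPKM in R6/1. Its genotypes overlapped at the edge, and the difference of 0.24 ± 0.05 (SE) passed the test (adjusted p = 4.26e-04, limma). Ptger4, the prostaglandin E2 receptor EP4, was higher by 0.28 (adjusted p = 0.014, limma), with 12 to 41 reads a library. WT libraries lay between 0.250 and 0.570 RPKM and R6/1 libraries between 0.396 and 0.816 RPKM. Its mean was 0.422 RPKM in WT and 0.622 RPKM in R6/1, so it reached the minimum of 0.5 RPKM only through R6/1. Its call is therefore weaker than that of the other 2 neighbours. Ptger4 and Ttc33 overlap on opposite strands, and strand use in counting is not given in the sources used here. All 3 genes lie wholly in the domain. Card6, a caspase recruitment domain protein of the same domain, was the gene of the new domains called lower, from 1.07 ± 0.253 to 0.732 ± 0.0590 RPKM (SD, n = 9 each, adjusted p = 0.0024, limma).

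Among the 43 genes over the expression minimum, the largest decreases were in Tnc, Pcsk5 and Fam19a2, which all start in extensions. Tnc, the matrix glycoprotein tenascin C, ranged from 0.919 over 1.38 to 1.95 RPKM in WT and from 0.401 over 0.581 to 1.11 RPKM in R6/1. It fell by 0.80 ± 0.11 (SE) on the log2 scale (adjusted p = 7.27e-06, limma), and all 9 R6/1 libraries lay below the WT median. Pcsk5, a proprotein convertase that cleaves secreted precursors, ranged from 1.54 over 1.93 to 2.16 RPKM in WT and from 1.09 over 1.18 to 1.51 RPKM in R6/1, with no overlap (fell by 0.43 ± 0.07 SE, adjusted p = 5.33e-05, limma). Fam19a2, a secreted chemokine-like protein, ranged from 14.8 over 17.1 to 19.97 RPKM in WT and from 11.4 over 12.9 to 14.4 RPKM in R6/1, also with no overlap (fell by 0.39 ± 0.05 SE, adjusted p = 3.09e-06, limma). Nrxn3, a presynaptic adhesion protein, fell from 23.5 ± 2.17 to 19.4 ± 1.57 RPKM (SD, n = 9 each, adjusted p = 4.06e-04, limma). For Nrxn3 28.9% of the gene lies in gained sequence and 71.1% in sequence that was in a domain in both genotypes, and for Fam19a2 the shares are 13.6% and 86.4%. Both genes therefore sat largely in lamina domains in WT already. Tnc lies wholly in gained sequence and 55.9% of Pcsk5 does.

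The remaining lower genes were Ostf1, 1190002N15Rik, Gm10845, 6720489N17Rik, Zfp935 and Tom1l1. Gm10845 ranged from 19.7 to 26.3 RPKM in WT and from 15.5 to 19.6 RPKM in R6/1 with no overlap, but 30.7% of its exon words have 1 copy in the genome. Ostf1, a signalling adaptor with an SH3 domain, fell from 9.43 ± 1.19 to 7.42 ± 0.737 RPKM, and 1190002N15Rik lay below the WT median in all 9 R6/1 libraries. The calls of 1190002N15Rik (adjusted p = 0.0545) and Tom1l1 (adjusted p = 0.145) were lost when libraries were scaled to their own reads, and so was that of Zfp935 (adjusted p = 0.117, all limma). Without the 7 libraries rich in Ttr the calls of 6720489N17Rik (adjusted p = 0.139), Tom1l1 (difference -0.14, adjusted p = 0.276) and Zfp935 (difference -0.16, adjusted p = 0.114, all limma) were lost. Zfp935 also lost its call under quantile normalization (adjusted p = 0.0539, limma). Tom1l1, a trafficking adaptor, also lost its call when any of 7 single libraries was left out: WT replicate 3, 5, 6 or 9 or R6/1 replicate 2, 7 or 9 (adjusted p up to 0.0589, limma). Its difference in these fits was -0.17 to -0.19, against -0.20 with all libraries. Of the exon words of Zfp935 and 6720489N17Rik, 68.3% and 37.7% have 1 copy.

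**Figure D5:**
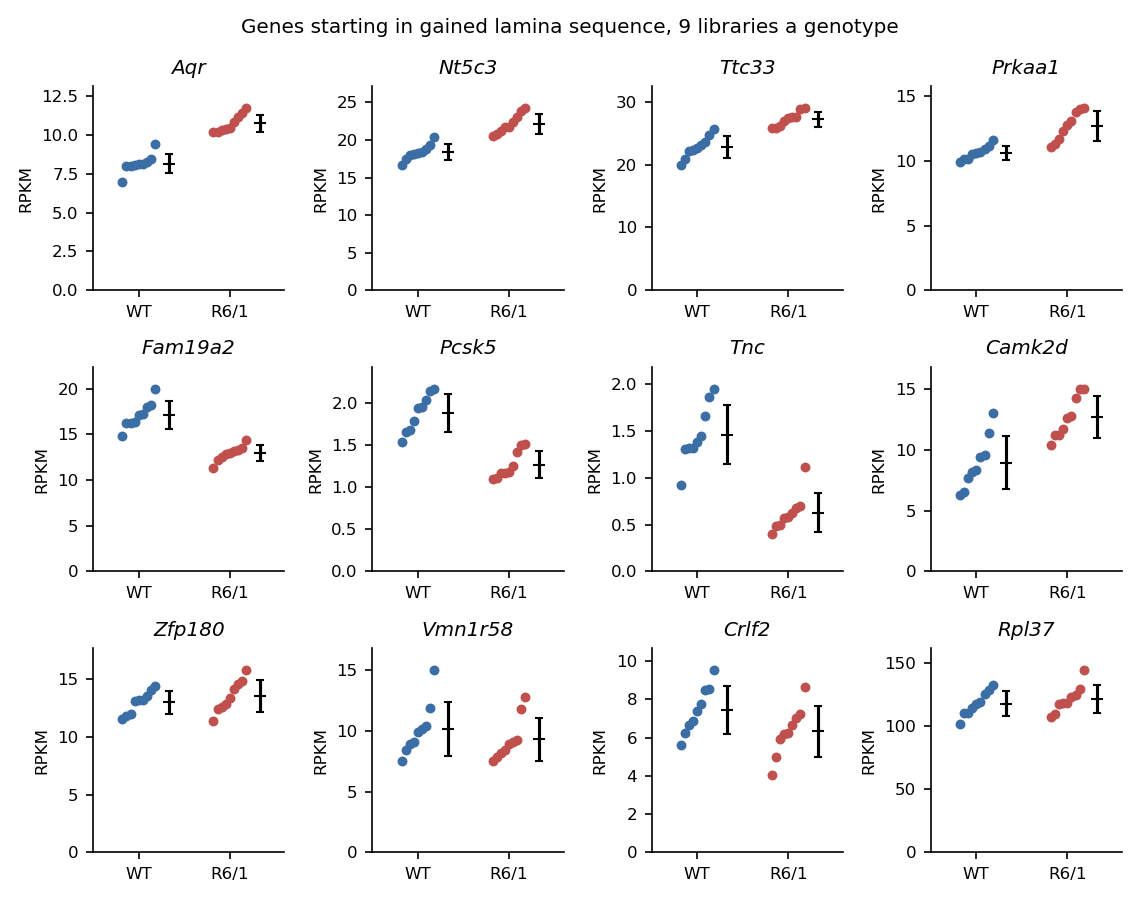
RPKM of 12 genes that start in gained sequence in 9 WT (blue) and 9 R6/1 (red) libraries, sorted within each genotype, with the mean and SD as bars. Aqr, Nt5c3, Ttc33, Fam19a2 and Pcsk5 do not overlap between genotypes, while Zfp180, Vmn1r58, Crlf2 and Rpl37 do and were not called.

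Rpl37 and Satb1 were among the most highly expressed gained genes and were not called. Rpl37, a protein of the large ribosomal subunit, had the highest level of all 193 genes, from 101.4 over 117 to 133 RPKM in WT and from 107 over 118 to 144 RPKM in R6/1, with a difference of 0.04 ± 0.06 (SE, adjusted p = 0.57, limma). Of its exon words 76.0% have 1 copy, and ribosomal protein genes have many processed copies. Satb1, a chromatin organiser that binds AT-rich DNA and lies wholly in an extension on chromosome 17, had 15.2 to 26.7 RPKM in WT and 18.9 to 24.4 RPKM in R6/1 (adjusted p = 0.377, limma). Crlf2 had 5.60 to 9.53 RPKM in WT and 4.02 to 8.65 RPKM in R6/1 (difference -0.23, adjusted p = 0.0999, limma), and it was called lower when WT replicate 6 (adjusted p = 0.0488) or R6/1 replicate 6 (adjusted p = 0.0357) was left out. In the longest new domain 4930452B06Rik had 1.14 to 4.07 RPKM in WT and 1.21 to 2.64 RPKM in R6/1 (difference -0.33, adjusted p = 0.0923, limma), and it was called lower when WT replicate 1 (adjusted p = 0.00871) or WT replicate 6 (adjusted p = 0.0495, both limma) was left out. The authors' deposited table also calls it (log2 fold change -0.39, adjusted p = 0.037). Zfp202 differed least of all 43, by 0.00 ± 0.07 (SE). The 21 genes not called had differences of up to 0.33 in size, so these values do not show that they were equal.

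Prlr and Capsl lie in the second chromosome 15 domain, and Prlr was highest in the libraries richest in choroid plexus RNA. Prlr, the prolactin receptor, is abundant in choroid plexus and was among the markers of that tissue. It was 0.322 to 2.25 RPKM in WT and 0.461 to 2.40 RPKM in R6/1, with its highest values in the libraries highest in Ttr, WT replicate 3 (1035 RPKM Ttr) and R6/1 replicate 3 (1696 RPKM Ttr). The summed choroid plexus markers ranged from 27.1 to 1087 RPKM in WT and from 41.3 to 1763 RPKM in R6/1, and 0 of these 10 genes were called. Prlr differed by 0.13 ± 0.25 (SE, adjusted p = 0.704, limma), and by 0.41 (adjusted p = 0.023, limma) without the 7 libraries above 500 RPKM of Ttr. That cutoff was chosen after the data were seen and left the genotypes unequal in Ttr. The WT libraries kept reached at most 112 RPKM (replicate 4), while R6/1 replicates 6, 1 and 8 had 282, 375 and 491 RPKM. A difference of Prlr at equal choroid plexus content was therefore not tested. Capsl, a calcium-binding protein related to calcyphosine, ranged from 1.44 over 1.90 to 3.68 RPKM in WT and from 1.91 over 3.42 to 4.07 RPKM in R6/1. In WT, Capsl was highest in replicates 5 (3.68 RPKM), 3 (3.30 RPKM) and 1 (2.41 RPKM). These are the WT libraries highest in Ttr, with 894, 1035 and 925 RPKM. In R6/1, Capsl was highest in replicate 7, the R6/1 library lowest in Ttr (33.4 RPKM). A link of Capsl with choroid plexus content was not tested. The difference of Capsl was 0.49 ± 0.15 (SE, adjusted p = 0.011, limma), and it was 0.75 (adjusted p = 0.00112, limma) without those 7 libraries. The smaller fit has the same imbalance in Ttr for Capsl.

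Below the expression minimum, 2 genes of extensions fell with no overlap between genotypes. They are named because of their values, so the tests that follow are no separate support for them. The share of genes without overlap among all genes below the minimum was not computed. Adgrf4, an adhesion G protein-coupled receptor, had a WT mean of 0.758 ± 0.170 RPKM and an R6/1 mean of 0.187 ± 0.0662 RPKM (SD, n = 9 each). Fst, the activin-binding protein follistatin, had a WT mean of 0.507 ± 0.120 RPKM and an R6/1 mean of 0.0882 ± 0.0552 RPKM (SD, n = 9 each). In a fit without a minimum Adgrf4 fell by 0.87 (adjusted p = 7.28e-08, limma) and Fst by 0.77 (adjusted p = 9.58e-08, limma) on the log2(RPKM + 0.5) scale, where low genes show less change than in RPKM. Of the 101 gained genes that this fit tested, 11 were called higher and 15 lower. Over all 20791 genes tested without a minimum, 3652 were called higher and 3671 lower. Among the gained genes the fit also called C7 (-0.19, adjusted p = 0.0235) and Spef2 (-0.23, adjusted p = 0.0270, limma) lower. The authors' deposited table calls these 4 genes too. Over all genes with an adjusted p in that table, 40.4% are called. Of the 66 gained genes with one, it calls 11 higher and 16 lower. Of the 43 genes tested here, a set without low genes, it calls 23. Among these are all 22 called by limma, in the same direction.

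By library, the summed level of the 193 genes was 423 over a median of 453 to 478 RPKM in WT and 447 over 458 to 462 RPKM in R6/1. The ranges overlap. Within new domains the sums were 189 to 217 RPKM in WT and 203 to 228 RPKM in R6/1, and within extensions 228 to 260.4 RPKM in WT and 231 to 255.1 RPKM in R6/1. Between 59 and 71 of the 193 genes had a read in a WT library and between 60 and 70 in an R6/1 library.

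RNA of several tissue and cell type markers also differed between genotypes. All 8 hippocampal markers were detected and all 8 were lower in R6/1, with summed levels of 1740 to 2100 RPKM in WT and 1243 to 1429 RPKM in R6/1. All 4 astrocyte and all 4 oligodendrocyte markers were also lower, with summed astrocyte levels of 558 to 749 and 356 to 559 RPKM. Other lists shifted less: 2 of 4 microglial and 3 of 6 striatal markers were lower, and 0 of 3 endothelial markers were called. In bulk tissue, fewer cells of a type and less RNA per cell cannot be told apart. The part of such shifts in the changes of Tnc, Nrxn3 and the other gained genes was not tested. Of 22 genes of the lamina and its chromatin tethers, 9 were higher and 2 lower in R6/1 (limma), against 24.8% and 23.5% of all genes tested, with summed levels of 286 to 312 RPKM in WT and 303 to 326 RPKM in R6/1.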

How the data were processed

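RNA-seq and lamin B1 ChIP-seq of mouse hippocampus were analysed (9 WT and 9 R6/1 RNA libraries, 1 domain list a genotype). Groups follow the labelled genotype. ATAC-seq was not used here, and 0 sample columns were left out. The submitters' processing notes name Bowtie for the ChIP-seq, TopHat and DESeq2 for the RNA-seq and build mm9, which is NCBIM37, with no versions. RNA libraries were poly(A) and stranded, per the labels' protocols. The authors deposited RPKM per gene symbol, and a table with log2 fold changes, p-values, a test score and a mean normalized count (a signal, not raw counts) per gene. The domain lists give 1 score a domain, which the authors' EDD caller made from lamin B1 against input. How ChIP replicates were combined and how reads with several matches were placed is not given in the sources used here.

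A bin is gained where it lies in R6/1 domains and in no WT domain. Bins under 37 kb at 2 chromosome ends were left out. Gene starts came from GENCODE on NCBIM37, and 22225 of 24508 symbols (90.7%) matched, by name or by RefSeq synonym. RPKM were turned back into reads (whole within 0.05 of a read for 99.75% to 99.82% of values under 200 reads). The depth limits precision, and 0 reads allow up to 3 by counting error alone. Genes averaging 0.5 RPKM or more were tested on log2(RPKM + 0.5) with limma 3.58.1 (lmFit, eBayes with trend, R 4.3.3), two-sided, with Benjamini-Hochberg adjustment over all genes. The fit and the word count were tested on simulated data. Word copies were counted over the whole genome with Python 3.11.15 and numba 0.67.0.

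Genes named are those called, the highest in each new domain and in each family with at least 3 gained starts, the 3 highest in extensions and the one that differed least. The members, lists and families were chosen with earlier results of these data known. Replicate numbers do not pair the libraries. Other scalings, pseudocounts, minimums, single libraries left out and other definitions of gained sequence were tried.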

Additional observations from a re-analysis of the deposited data

Results flagged for a closer look

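In 4 of 79 groups of 9 values, 1 library stood apart from the other 8 by Dixon's criterion, which chance gives in about 1 group in 20. For 1700030C10Rik, R6/1 replicate 2 had 1.28 RPKM (37 reads) and the next library 0.489 RPKM. For Card6, WT replicate 6 had 1.67 RPKM and the next 1.21 RPKM. For Tnc, R6/1 replicate 5 had 1.11 RPKM and the next 0.703 RPKM. For Psg17, R6/1 replicate 3 had 0.0274 RPKM from 1 read and the other R6/1 libraries 0.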

How the results depend on the processing

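Leaving out single libraries gave 11 higher genes each time, 10 to 12 lower genes and medians of -0.06 to 0.00. With the replicate block, 11 higher and 11 lower genes were called, with a median of -0.03. Same-numbered libraries correlated at -0.053 to 0.237, 3 of 9 pairs above 0.1, and 2 correlated best with their own number. A count model (limma's voom) on the reads recovered from RPKM called 11 and 11 of the 43, and 3601 and 3424 over all genes. A minimum of 2 RPKM left 7 lower genes, since fewer were tested, and scaling to own reads moved the median to 0.031, where that of all genes moved to 0.07. Gained bins at least 1 bin from every WT domain held 6 higher genes. R6/1 domains with a score at or above the median held 88 gained bins and 18 genes, 44.4% of them at 0.5 RPKM, with 2 higher and 3 lower genes and a median of 0.026. No new domain is among these. Bins with at least 75% single-copy words, an alternative chosen after seeing the data, numbered 440, and 30.8% of their genes reached 0.5 RPKM. Over the 43 genes, 1252 of 1278 alternative values kept their side of the threshold, 16 calls were lost in 6 genes, 10 were gained in 5 genes, and no called gene turned its direction. Domain calls have 1 list a genotype, so their error is unknown.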
